A study of Mus musculus with 18 samples.

Results

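The epithelial-mesenchymal transition is a change of cell state in which epithelial cells loosen their junctions and take on properties of migrating mesenchymal cells. It is driven by zinc-finger and basic helix-loop-helix repressors of the Snail, Twist and ZEB families, which bind short E-box motifs and repress E-cadherin and other junction genes. Cells in the mesenchymal state typically carry vimentin filaments, N-cadherin in place of E-cadherin, the hyaluronan receptor CD44 and a fibronectin matrix. Fibroblasts and macrophages express several of these genes as well, and hepatocytes secrete fibronectin into the blood and carry N-cadherin at their junctions. In a whole tumour the level of each is therefore a sum over cell types.

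The 10 genes described here were chosen by name: the transcription factors Snai1, Snai2, Twist1, Twist2, Zeb1 and Zeb2, and the effectors Vim, Cdh2, Cd44 and Fn1. That choice was made with earlier results of these data known. All 10 had a row among the 22137 genes of one deposited table and the 24778 of the other, and all 10 passed the filter on low counts in both. Bulk RNA came from tumours that MC38 cells, a mouse line of colon carcinoma, had formed in the liver of wild-type mice after injection into the spleen. One table held tumours from low-fat-fed mice (LFD, n = 5) and high-fat-fed mice (HFD, n = 5). The other held tumours of high-fat-fed mice whose genotype is labelled shControl (shCon, n = 4) or shYap, a hairpin against Yap (n = 4). No label says which cells carried the hairpin, whether the lines were clones, or whether each library stands for its own animal. The p-values therefore measure only the spread between these samples, which may be technical. Animal age and sex are not given in the sources used here.

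Several facts of the libraries stand beside every result. Totals were 17766207 to 18474191 estimated counts per library in the diet table and 17207214 to 21309950 in the hairpin table. Each table was normalised alone to CPM, the count scaled by library size with TMM factors. Tests were run only within a table, and levels set side by side across tables are not tested. The 12 hepatocyte markers summed to 11213 to 105848 CPM in LFD and 576 to 4591 CPM in HFD, and all 12 fell. Xist, which coats the inactive X, was at 72.9 to 135 CPM in LFD and 0.0505 to 0.293 CPM in HFD. The Y-linked genes Ddx3y, Eif2s3y, Kdm5d and Uty did not move against it. With Xist they summed to 116 to 251 CPM in LFD and 23.2 to 32.9 CPM in HFD, and all 5 fell. Hepatocyte share, Xist-bearing RNA and diet therefore cannot be told apart in this comparison. In the hairpin table the same 5 genes summed to 33.9 to 48.2 CPM in shCon and 38.4 to 50.4 CPM in shYap. Hepatocyte markers there summed to 11626 to 39943 CPM in shCon and 14057 to 70843 CPM in shYap. High hepatocyte RNA in those libraries thus did not come with sums of the 5 genes as high as in LFD. Of 9 epithelial markers in the tables, Epcam reached at most 2.42 CPM and Vil1 at most 0.685 CPM in any library. Lgals4 reached 26.2, Cdh1 37.2, Krt18 236 and Krt8 274 CPM, and Krt19, Krt7 and Cdh17 at most 6.60, 3.18 and 5.96 CPM. Yap1 was at 73.8 to 82.4 CPM in shCon. The libraries labelled shYap held 70.5 to 81.4 CPM, and edgeR gave -0.04 ± 0.11 SE (log2, adjusted p = 0.937).

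The sequences just upstream of 4 genes that rose together in HFD tumours show what kind of promoter each has. RefSeq (GRCm38.p6) gave a promoter for 6 of the 10 genes. The 250 bases before the annotated start are printed 5′ to 3′ on the gene's own strand, with a match to the E-box CACCTG, bound by Snail and ZEB proteins, in capitals.
Snai1 (chr2:167537945-167538194, plus strand): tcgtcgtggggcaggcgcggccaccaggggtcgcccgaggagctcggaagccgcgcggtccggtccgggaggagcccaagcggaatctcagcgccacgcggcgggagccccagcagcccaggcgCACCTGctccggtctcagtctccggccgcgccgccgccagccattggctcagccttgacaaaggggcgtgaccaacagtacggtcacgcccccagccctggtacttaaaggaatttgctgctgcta
Twist1 (chr12:33957421-33957670, plus strand): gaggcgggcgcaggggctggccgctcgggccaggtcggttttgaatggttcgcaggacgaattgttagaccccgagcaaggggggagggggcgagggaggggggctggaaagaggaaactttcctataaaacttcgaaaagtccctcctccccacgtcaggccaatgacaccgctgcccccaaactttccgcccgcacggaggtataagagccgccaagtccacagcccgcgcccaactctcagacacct
Twist2 (chr1:91801211-91801460, plus strand): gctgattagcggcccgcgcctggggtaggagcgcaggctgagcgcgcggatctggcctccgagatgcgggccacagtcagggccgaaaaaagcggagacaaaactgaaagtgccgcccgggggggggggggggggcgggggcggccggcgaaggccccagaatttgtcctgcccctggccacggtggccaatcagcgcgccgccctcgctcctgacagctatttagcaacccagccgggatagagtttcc
Cd44 (chr2:102901666-102901915, minus strand): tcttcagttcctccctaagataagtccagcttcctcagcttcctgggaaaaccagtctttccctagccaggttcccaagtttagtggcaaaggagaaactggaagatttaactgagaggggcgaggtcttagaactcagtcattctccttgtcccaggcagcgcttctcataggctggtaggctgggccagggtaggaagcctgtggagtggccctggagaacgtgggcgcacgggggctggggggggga

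CACCTG, searched on both strands, occurred once in the Snai1 window, beginning 126 bases before the start, and in none of the other 3. In the same 250 bases 17.2% of all 32851 promoters held it. The motif GGAATG, bound by the TEAD partners of Yap, and the AP-1 motif TGANTCA occurred in none of the 4 windows, against 12.6% and 6.75% of all promoters. Of the other genes with a promoter, Vim held none of the 3 motifs, and of 4 Zeb2 windows 1 (chr2:45110278-45110527, minus strand) held 1 GGAATG and 2 TGANTCA. Their GC content was 70.0% for Snai1, 68.8% for Twist2, 62.4% for Twist1 and 56.4% for Cd44, with a median of 52.4% over all promoters. These matches describe letters in a window and say nothing of binding in these tumours.

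The first comparison asks how the genes differed between tumours of high-fat-fed and low-fat-fed mice. In HFD 6 of them rose (Snai1, Twist1, Twist2, Vim, Cd44 and Fn1), Cdh2 fell, and Snai2, Zeb1 and Zeb2 did not pass the test. A background matters here: 41.1% of the 16340 genes tested were called in either direction, 19.4% as higher and 21.6% as lower. The median log2 fold change of the 10 genes was 0.72, beside -0.0018 over all genes tested. For 5 of the 10 genes LFD and HFD values were fully apart, as they were for 30.6% of all genes tested. Of 10 fibroblast markers 5 also rose and none passed as lower, and their part in these results was not tested. They summed to 3250 to 5996 CPM in LFD and 7013 to 9213 CPM in HFD. Col3a1 made the largest part of this sum (mean 2664 CPM in LFD and 5036 CPM in HFD). Mean levels of Thy1 (22.7 and 15.6 CPM) and Fap (4.09 and 2.40 CPM) were lower in HFD. In bulk tissue fewer cells of a type and less RNA per cell cannot be told apart.

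**Figure D1:**
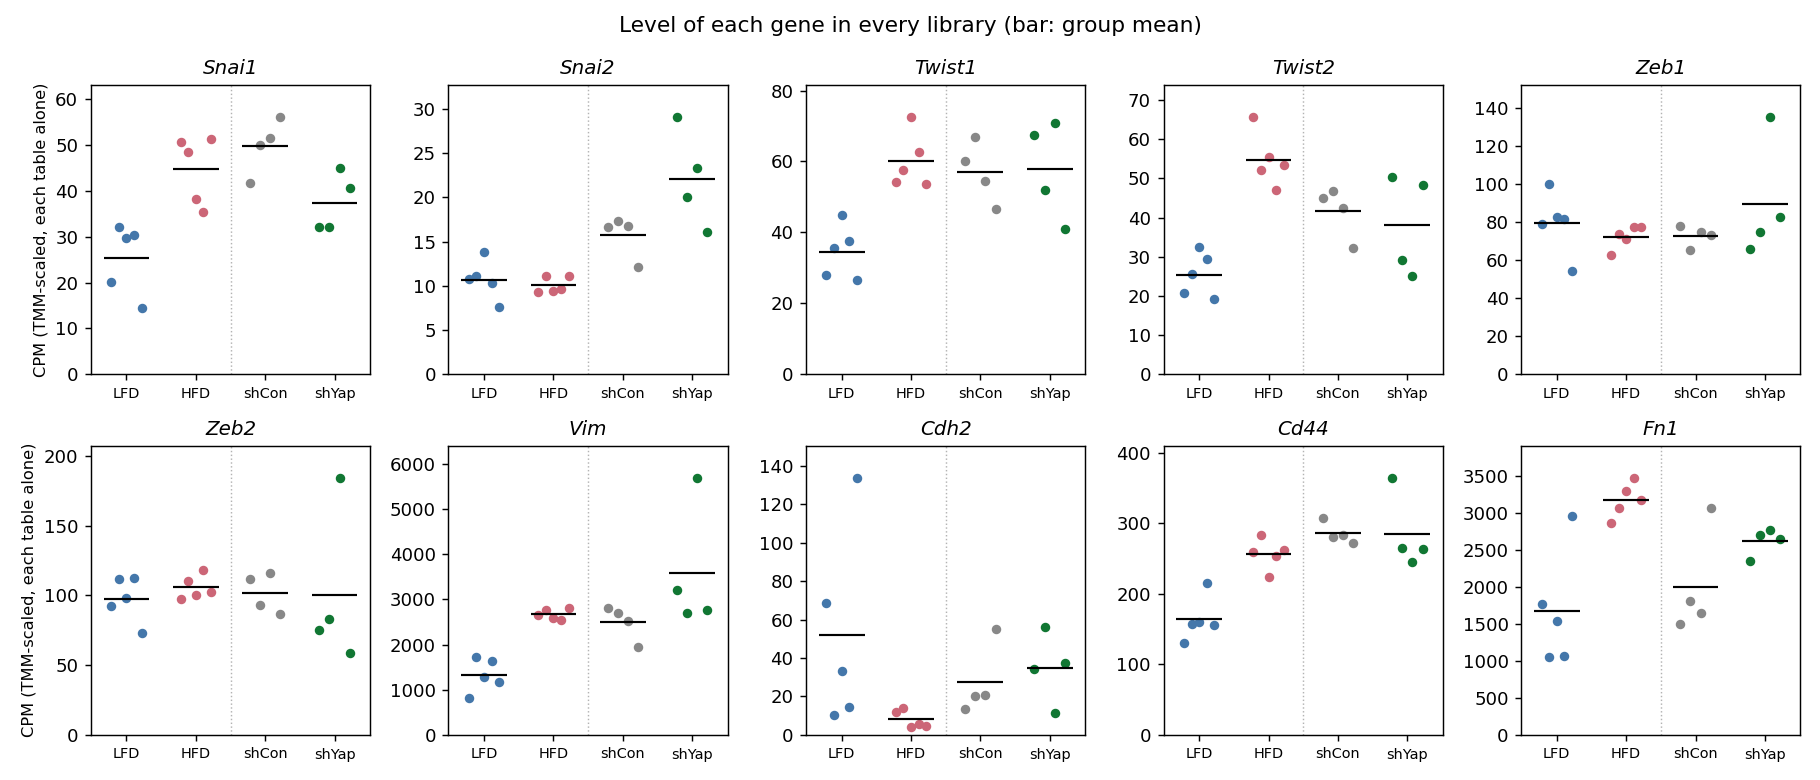
Level in CPM (vertical axes, linear from 0) of the 10 genes in each of the 18 libraries, as points by group, with the group mean as a bar; a dotted line parts the separately normalised tables. Every HFD point lies above every LFD point for Snai1, Twist1, Twist2, Vim and Cd44, while Cdh2 spans 10.3 to 133.9 CPM within LFD.

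Snai1, which encodes the Snail repressor of E-cadherin, lies on chromosome 2 from 167538195 to 167542814 (GRCm38, plus strand). Its level was 20.1, 32.1, 29.8, 30.5 and 14.4 CPM in LFD replicates 1 to 5 and 50.7, 48.5, 38.3, 35.4 and 51.3 CPM in HFD replicates 1 to 5. The lowest HFD library was above the highest LFD library, and LFD replicates 1 and 5 were the lowest of all. The log2 fold change was 0.82 ± 0.22 SE (adjusted p = 0.0133, edgeR quasi-likelihood test). Snai2, which encodes the related repressor Slug, lies on chromosome 16 from 14705852 to 14709385. It ranged from 7.57 to 13.8 CPM in LFD and from 9.32 to 11.1 CPM in HFD, so that all HFD values fell inside the LFD range (-0.08 ± 0.15 SE, adjusted p = 0.685).

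The proportion of the Snail paralogs to each other, which does not depend on library scaling, moved with the diet groups. The ratio of Snai1 to Snai2 counts was 1.87, 2.897, 2.16, 2.97 and 1.903 in LFD and 5.44, 4.36, 4.06, 3.68 and 4.63 in HFD. These ranges did not overlap. The ratio of Twist1 to Twist2 ran from 1.28 to 1.40 in LFD and from 0.825 to 1.33 in HFD, and that of Zeb1 to Zeb2 from 0.723 to 0.89 and from 0.642 to 0.75. Both of the latter pairs of ranges overlapped.

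Twist1 and Twist2, paralogous basic helix-loop-helix factors of mesoderm, both rose. Twist1 (chromosome 12, 33957671 to 33959829, plus strand) was at 27.9, 35.5, 44.9, 37.4 and 26.7 CPM in LFD and at 54.2, 57.7, 72.5, 62.7 and 53.6 CPM in HFD. Its log2 fold change was 0.80 ± 0.15 SE (adjusted p = 0.00265 in edgeR). Twist2 (chromosome 1, 91801461 to 91848028, plus strand) was at 20.7, 25.6, 32.4, 29.3 and 19.1 CPM in LFD and at 65.7, 52.1, 55.4, 47.04 and 53.3 CPM in HFD. Neither gene overlapped between the groups, and for both the lowest libraries were LFD replicates 1 and 5. Twist2 had the smallest p of the 10 genes (log2 fold change 1.103 ± 0.15 SE, adjusted p = 0.000663 in edgeR). The antisense gene Gm29100 overlaps Twist2 on the other strand, and its estimated count reached up to 17.9% of that of Twist2 in the diet table. Library strand is not given, so reads of this overlap cannot be separated.

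The ZEB factors, which bind E-boxes as Snail does, did not pass. Zeb1 had a lowest, median and highest level of 54.1, 81.3 and 99.8 CPM in LFD and of 62.6, 73.4 and 77.2 CPM in HFD (log2 fold change -0.14 ± 0.14 SE, adjusted p = 0.462 in edgeR). Zeb2, which macrophages also express, stood at 73.2, 98.5 and 112 CPM in LFD and at 97.6, 103 and 118 CPM in HFD (0.12 ± 0.12 SE, adjusted p = 0.460). The LFD range held most HFD values of both genes. The macrophage markers summed to 2133 to 4481 CPM in LFD and 2832 to 3692 CPM in HFD, with 1 of 10 lower and none at 0. Their part in the ZEB levels was not tested. Zeb2 passed as higher (0.40, adjusted p = 0.0151 in edgeR) with the mean level of 10 leukocyte markers as a covariate, 7 of which were lower in HFD.

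Among the effectors, Vim encodes the intermediate filament vimentin. It lies on chromosome 2 from 13573927 to 13582826 (plus strand). Its level was 814, 1726, 1272, 1639 and 1181 CPM in LFD and 2651, 2759, 2593, 2555 and 2804 CPM in HFD. The HFD libraries lay within 1.098-fold of each other and all above LFD, whose libraries spread over 2.12-fold. The log2 fold change was 1.01 ± 0.18 SE (adjusted p = 0.00216 in edgeR).

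Cd44, the receptor for hyaluronan and osteopontin, lies on chromosome 2 from 102811141 to 102901665 (minus strand). It was at 130.5, 158, 160.4, 216 and 156 CPM in LFD and at 259, 283, 224, 253 and 262 CPM in HFD. The highest LFD library, replicate 4, stayed under the lowest HFD library. The log2 fold change was 0.64 ± 0.13 SE (adjusted p = 0.00314 in edgeR). Leukocytes carry Cd44 too, and the 10 leukocyte markers summed to 1005 to 1908 CPM in LFD and 1059.5 to 1244 CPM in HFD, with 7 of 10 lower, none higher and none at 0. With their mean level as a covariate the rise of Cd44 was 0.74 (adjusted p = 0.00797 in edgeR). The part of leukocytes, or of any subset of them, in the Cd44 level was not tested.

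Fn1, fibronectin of the matrix and of plasma, lies on chromosome 1 from 71585520 to 71653200 (minus strand). It was at 1774, 1053, 1537, 1061 and 2964 CPM in LFD and at 2868, 3067, 3306, 3478 and 3183 CPM in HFD. In HFD 4 of 5 libraries were above every LFD library, and LFD replicate 5 reached into the HFD range. The log2 fold change was 0.92 ± 0.26 SE (adjusted p = 0.0183 in edgeR). The order of the LFD libraries by Fn1 was, from high to low, replicates 5, 1, 3, 4 and 2, which is also their order by summed hepatocyte markers. HFD did not share this pattern: its replicates 1 and 2, with the most hepatocyte markers (4079 and 4591 CPM), held the least Fn1 of the group. What part hepatocytes had in the Fn1 level was not tested. Without LFD replicates 1 and 5, the richest in hepatocyte RNA, the fold change was 1.41 (adjusted p = 8.29e-05). The call was lost with the 2 closest pairs of HFD libraries summed (0.93, adjusted p = 0.0736) and with the leukocyte covariate (0.49, adjusted p = 0.124).

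Cdh2, which encodes N-cadherin, went the other way. This gene lies on chromosome 18 from 16588877 to 16809246 (minus strand). Its level was 68.9, 10.3, 33.5, 14.7 and 133.9 CPM in LFD and 11.9, 14.2, 4.23, 5.48 and 4.65 CPM in HFD. The groups overlapped, since LFD replicate 2 was below HFD replicates 1 and 2. The log2 fold change was -2.68 ± 0.73 SE (adjusted p = 0.0159 in edgeR). Hepatocyte markers moved with it: the LFD libraries had the same order by Cdh2 as by summed hepatocyte markers, and HFD replicates 1 and 2, with 4079 and 4591 CPM of these markers, held the most Cdh2 of their group. With hepatocyte markers in the fit as a covariate (their mean level) it turned to 1.78 (adjusted p = 0.0475), and without LFD replicates 1 and 5 it was -1.24 (adjusted p = 0.109). The call was also lost in limma voom (-2.17, adjusted p = 0.0535) and with the closest HFD pairs summed (-2.77, adjusted p = 0.0664). Summed hepatocyte markers did not overlap between LFD and HFD, so the hepatocyte covariate cannot be told apart from diet. What part hepatocytes had in the fall of Cdh2 was not tested.

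**Figure D2:**
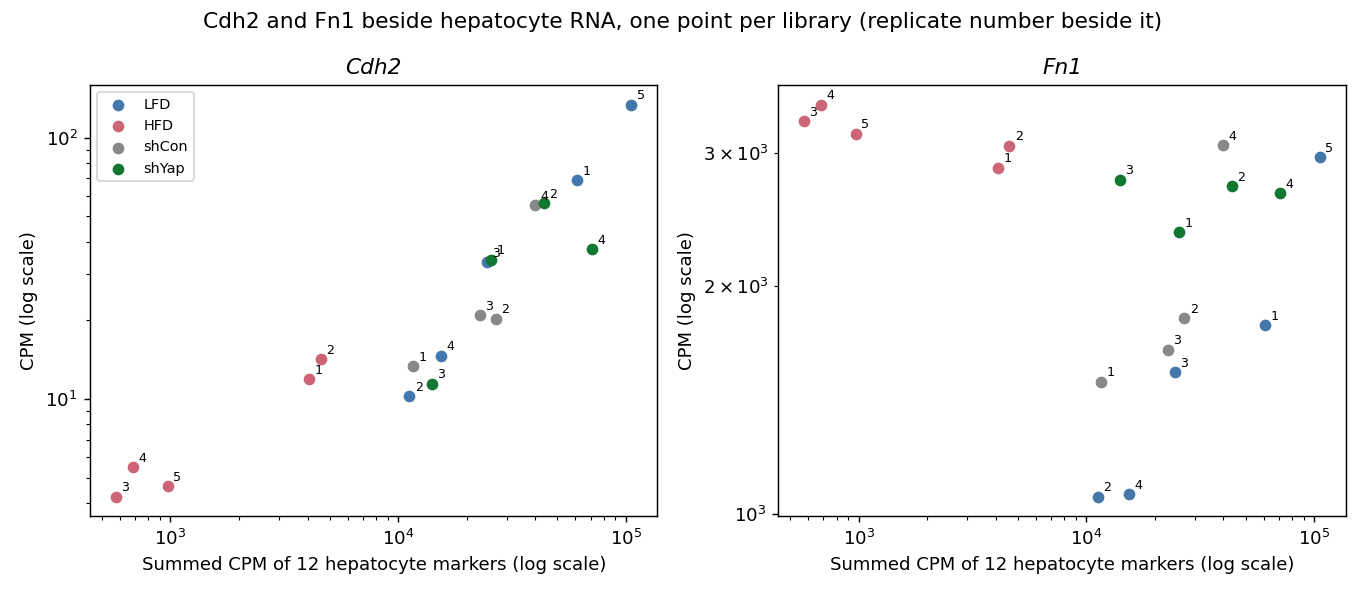
Cdh2 (left) and Fn1 (right) in CPM against the summed CPM of 12 hepatocyte markers, both on log axes, 1 point per library with its replicate number. The 5 HFD libraries lie at or below 4591 CPM of hepatocyte markers, where Cdh2 is at most 14.2 CPM and Fn1 at least 2868 CPM.

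The hepatocyte covariate bore on the genes that rose as well. In that fit Snai1 was at 0.38 (adjusted p = 0.584 in edgeR), Twist1 at 0.22 (0.607), Twist2 at 0.87 (0.106), Vim at 0.48 (0.35) and Cd44 at 0.52 (0.23), so none of the 5 passed. Fn1 remained higher (1.997, adjusted p = 0.0366). Over all genes 7.23% passed in this fit, against 41.1% without the covariate. Without LFD replicates 1 and 5, Snai1 (0.56), Twist1 (0.63), Twist2 (0.93), Vim (0.81), Cd44 (0.55) and Fn1 each still rose, and Zeb1 passed as lower (-0.26, adjusted p = 0.0486 in edgeR).

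The gene of E-cadherin, Cdh1, moved in the same direction as Cdh2. Cdh1 was at 17.6 ± 15.6 CPM in LFD and 4.71 ± 2.1 CPM in HFD (SD, n = 5 each), which edgeR gave as -1.89 ± 0.68 SE on the log2 scale (adjusted p = 0.0481). That call was lost on leaving out any one library other than LFD replicates 2 and 4 (adjusted p = 0.0538 to 0.117). The ratio of Cdh2 to Cdh1 counts ran from 2.23 to 3.60 in LFD and from 0.941 to 2.17 in HFD, and these ranges did not overlap. With the hepatocyte covariate Cdh1, like Cdh2, turned upward (2.30, adjusted p = 0.067), and in limma voom it did not pass (-1.27, adjusted p = 0.197).

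**Figure D3:**
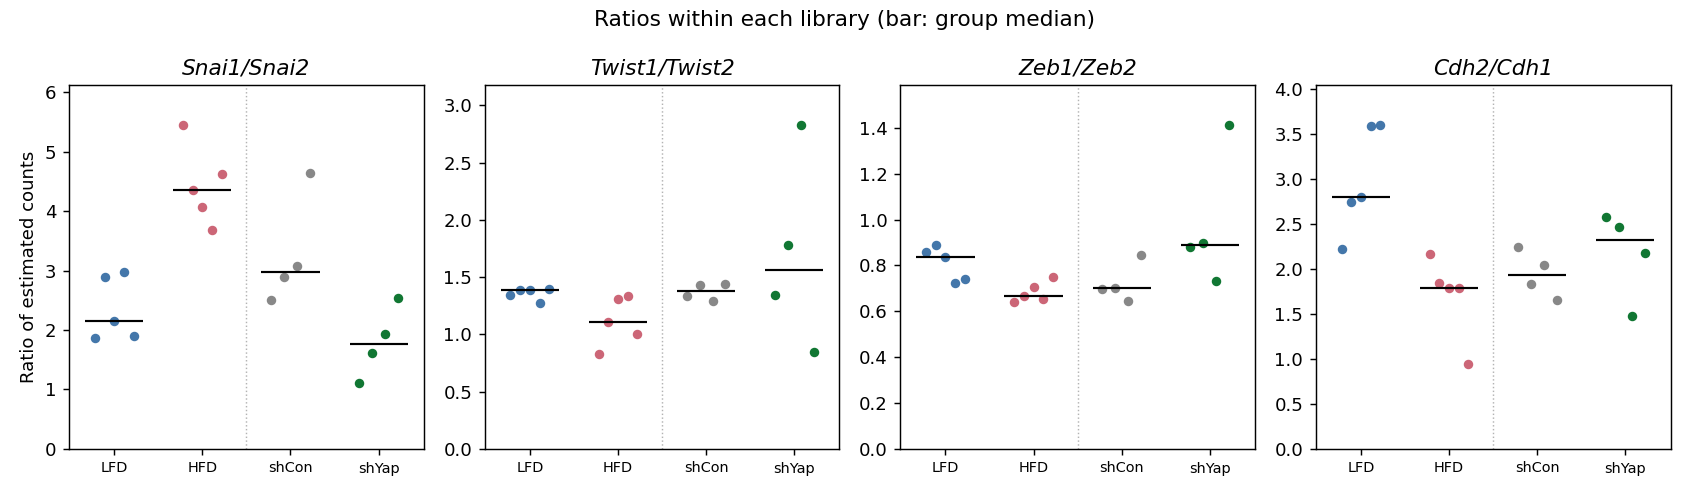
Ratios of estimated counts (vertical axes, linear from 0) of Snai1 to Snai2, Twist1 to Twist2, Zeb1 to Zeb2 and Cdh2 to Cdh1 in each library, with the group median as a bar. Snai1 over Snai2 runs from 1.87 to 2.97 in LFD and from 3.68 to 5.44 in HFD, and Cdh2 over Cdh1 from 2.23 to 3.60 and from 0.941 to 2.17.

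Per kilobase of merged exons the order of the genes can be read within a group. In LFD the mean level was 280 ± 77.8 CPM per kilobase for Vim and 144 ± 67.0 for Fn1, followed by Cd44 (24.2 ± 4.61), Twist1 (21.2 ± 4.58) and Snai1 (15.7 ± 4.77). Twist2 (8.01 ± 1.76), Zeb1 (7.73 ± 1.59), Cdh2 (6.47 ± 6.34), Snai2 (5.29 ± 1.1) and Zeb2 (4.90 ± 0.816) followed (SD, n = 5). Within that row Cdh2 and Snai2 differed by more than the SD of Snai2 but by less than that of Cdh2, and the other neighbours by less than either SD. In HFD Vim (563 ± 22.5) and Fn1 (272 ± 19.8) led again, and Cd44 (37.8 ± 3.13) and Twist1 (36.9 ± 4.8) did not differ beyond their spread. Snai1 (27.7 ± 4.61) came next. Twist2 (17.2 ± 2.16) followed and stood clear of Zeb1 (7.04 ± 0.585), and Cdh2 came last at 1.003 ± 0.573 CPM per kilobase (SD, n = 5). Zeb2 has 19.9 kilobases of merged exons, so its level per kilobase is low for its 106 ± 8.23 CPM.

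The counts of the wider lists stand against the same 19.4% of all genes called higher and 21.6% called lower, and nothing particular to a list is read from them. Of 15 tested other transition factors 9 rose and 1 fell, with a median log2 fold change of 0.48. By p, the leading ones were the paired-related homeobox factors Prrx1 (1.04 ± 0.10 SE, from 71.3 ± 10.2 to 147 ± 7.97 CPM) and Prrx2 (1.48 ± 0.15) and Wwtr1 (0.44 ± 0.07), which encodes the Yap paralog TAZ. Their adjusted p in edgeR was 0.000144, 0.000194 and 0.00111. With the hepatocyte covariate Prrx1 and Prrx2 passed (0.56 and 1.097, adjusted p = 0.0377 and 0.0431), and Wwtr1 did not (0.26, 0.27). Of 33 list genes examined in that fit, 19 lost their call with the sign kept and 7 others turned in sign. Some of the 7 lost their call as well, and Krt18 among them had not been called. The single fall, Foxq1 (-5.74 ± 1.46 SE, adjusted p = 0.0116), was named after its value was seen and rested on a widely spread LFD group (43.3 ± 81.3 CPM). It did not pass in limma voom (adjusted p = 0.0904).

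Of 19 tested epithelial junction and keratin genes 8 fell and 1 rose, with a median of -1.07. The polarity gene Crb3 fell from 6.28 ± 4.002 to 0.609 ± 0.351 CPM (SD, n = 5 each), or by -3.34 ± 0.54 SE on the log2 scale. Cgn, encoding cingulin of tight junctions (-1.07 ± 0.23), and the tight junction genes Cldn3 (-3.05 ± 0.79) and Ocln (-2.05 ± 0.55) fell as well, with adjusted p of 0.00136, 0.00484, 0.0127 and 0.0136 for these 4 genes in edgeR. None of the 4 passed as lower with the hepatocyte covariate, where Cldn3 (1.25, adjusted p = 0.0264) and Ocln (1.17, 0.209) turned upward. Cldn4, the 1 riser, was named after its value was seen (0.90 ± 0.29, adjusted p = 0.0287) and lost its call when LFD 1, LFD 3, HFD 3 or HFD 4 was left out (0.0566 to 0.072).

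Among 6 tested epithelial identity factors 2 rose and 2 fell. Klf4, a Krüppel-like factor of differentiated epithelia that other cells also use, rose from 17.2 ± 6.83 to 58.6 ± 5.54 CPM (1.77 ± 0.23 SE, adjusted p = 0.000517 in edgeR). Esrp2, a splicing factor of epithelial cells, fell from 39.6 ± 34.5 to 2.06 ± 1.84 CPM (-4.25 ± 0.83, adjusted p = 0.00349), and was at 0.21 (0.579) with the hepatocyte covariate. Grhl2, an activator of junction genes, fell as well (-1.14 ± 0.24, adjusted p = 0.00434), at levels of 1.83 ± 0.377 and 0.8292 ± 0.224 CPM. Klf5 (0.84 ± 0.27, adjusted p = 0.0298) rose but did not pass without LFD replicate 3 or HFD replicate 1, 3 or 4 (0.0524 to 0.0622). With the hepatocyte covariate Klf4 passed (2.09, adjusted p = 0.0248), and Grhl2 (0.185) and Klf5 (0.866) did not.

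Partners of the effectors rose in 10 of 19 tested genes and fell in 2 (median 0.37). Ezr, encoding ezrin, which ties CD44 to actin, went from 73.4 ± 12.02 to 145 ± 5.34 CPM (0.98 ± 0.11 SE). Jup, encoding plakoglobin of cadherin junctions, rose by 0.81 ± 0.12, and Itgb3, a chain of integrins that bind fibronectin, by 1.74 ± 0.25. Itga4, a fibronectin-binding chain of leukocytes, fell from 71.2 ± 20.9 to 32.6 ± 4.90 CPM (-1.13 ± 0.21), beside lower leukocyte markers. The adjusted p in edgeR was 0.000237, 0.000764, 0.00078 and 0.00252 for Ezr, Jup, Itgb3 and Itga4. Under the hepatocyte covariate Itgb3 (2.69, adjusted p = 0.00682) and Itga4 (-1.99, 0.00633) passed, and Ezr (0.0684) and Jup (0.098) did not. Rdx, encoding radixin, was the other gene that fell (-0.61 ± 0.13, adjusted p = 0.0054), and was named after its value was seen.

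Other mesenchymal genes rose in 8 of 19 tested and fell in none (median 0.50). S100a4, encoding a small calcium-binding protein, showed the largest change of the 4 with the smallest p, at 2.93 ± 0.57 SE. Its LFD level varied widely, at 79.5 ± 85.2 CPM, and its HFD level was 606 ± 35.5 CPM. The matrix genes Dcn (1.11 ± 0.18), Fbn1 (0.88 ± 0.15) and Tnc (1.38 ± 0.28) were the other 3, and the 4 had adjusted p of 0.00351, 0.00149, 0.00161 and 0.00363 in edgeR. In the fit with the hepatocyte covariate S100a4 passed (4.63, adjusted p = 0.0253), and Dcn (0.156), Fbn1 (0.251) and Tnc (0.0878) did not. Of 19 tested signals that raise the factors 5 rose and 2 fell, with a median of 0.0095. The risers included Tgfb3 (0.88 ± 0.16), Smad3 (0.83 ± 0.16), Smad2 (0.34 ± 0.07) and the receptor Axl (0.67 ± 0.14), with adjusted p of 0.00265, 0.00258, 0.00561 and 0.00522. The fifth riser, Hif1a (0.30 ± 0.09, adjusted p = 0.0216), did not pass without LFD replicate 1 (0.0503) or HFD replicate 2 (0.0511). The falls were Egfr (-3.29 ± 0.87, adjusted p = 0.0137), abundant in hepatocytes and lost in limma voom (0.0505), and Bmp4 (-0.65 ± 0.20, 0.0246). Bmp4 lost its call when LFD 1 or 3 or HFD 1, 2, 3 or 5 was left out (0.0517 to 0.0571). None of these 7 signals passed with the hepatocyte covariate (adjusted p = 0.116 to 0.839). Hif1a, Egfr and Bmp4 were named after their values were seen.

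**Figure D4:**
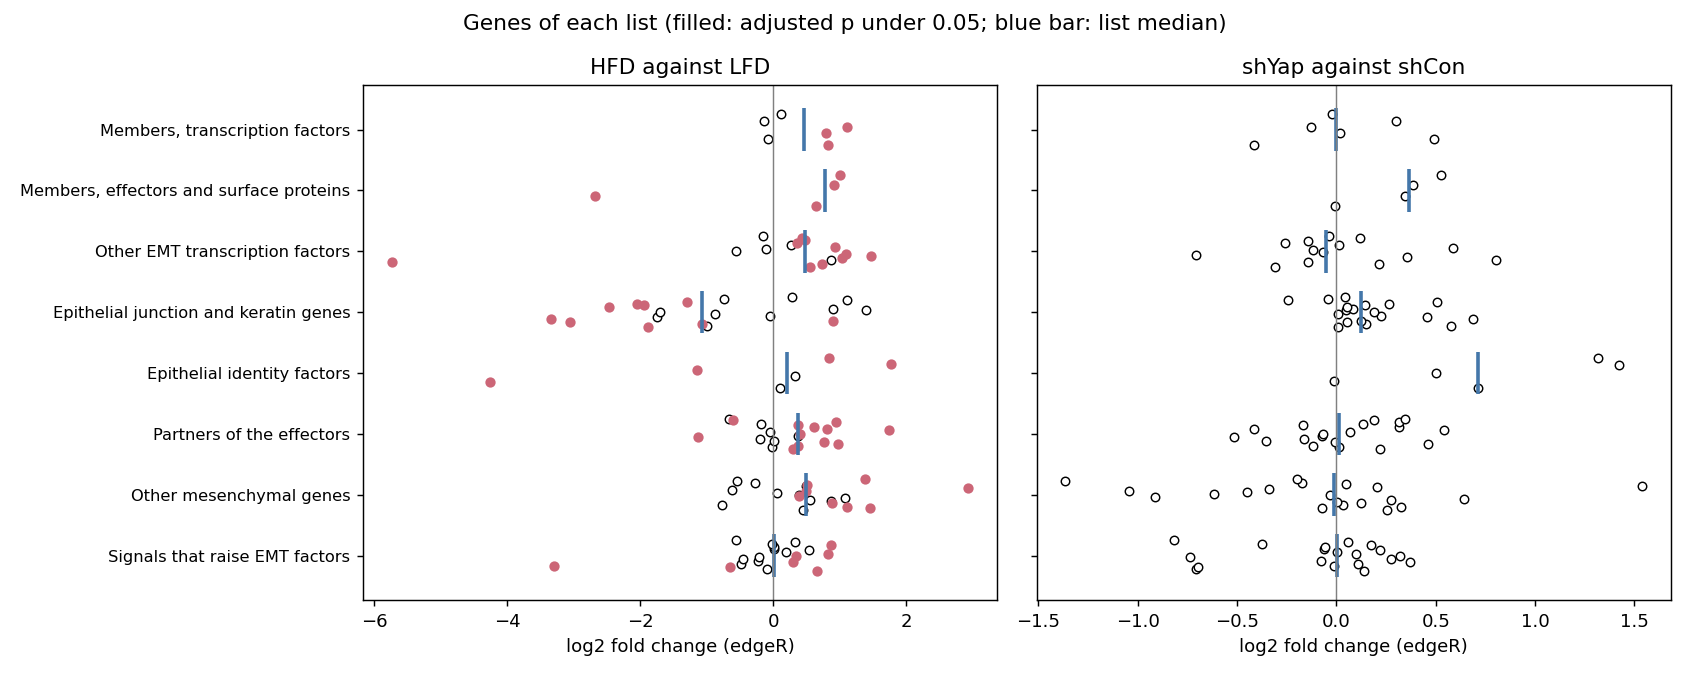
Log2 fold change (horizontal axes, 1 point per tested gene) in the 2 comparisons for the 10 genes and 6 other lists, filled where the adjusted p was under 0.05, with each list's median as a blue bar. For HFD against LFD the medians run from -1.07 for junction and keratin genes to 0.78 for the 4 effectors, and no point is filled for shYap against shCon.

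The second comparison asks how the genes differed between tumours labelled with a hairpin against Yap and with the control hairpin. None of the 10 genes passed, and no gene of the 16571 tested did (0.0%) in edgeR, where 1804 had an unadjusted p under 0.05. DESeq2 called 408 genes, limma voom 0, and neither called any of the 10. The groups overlapped in each of the 10 genes, against 6.57% of all genes without overlap. Their median log2 fold change was 0.16, beside 0.027 over all genes tested.

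Snai1 and Snai2 had the smallest p of the 10, with opposite signs. In replicate order, Snai1 had 41.7, 50.1, 51.6 and 56.1 CPM in the shCon libraries and 32.03, 32.2, 44.9 and 40.7 CPM in those labelled shYap. Of the 4 shYap libraries 3 were under every shCon library. The log2 fold change was -0.41 ± 0.16 SE (unadjusted p = 0.0251, adjusted p = 0.378 in edgeR). Snai2 was at 16.6, 17.4, 16.8 and 12.1 CPM in shCon and at 29.1, 19.99, 23.3 and 16.05 CPM in shYap. Here 3 of the 4 shYap libraries were above every shCon library (0.49 ± 0.20 SE, unadjusted p = 0.0382, adjusted p = 0.429 in edgeR). The ratio of Snai1 to Snai2 was 2.51, 2.89, 3.07 and 4.64 in shCon and 1.101, 1.61, 1.93 and 2.54 in shYap, and only the highest shYap library reached the lowest shCon one.

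Twist1 was at 60.2, 66.9, 54.6 and 46.5 CPM in shCon and at 67.5, 51.9, 70.8 and 40.9 CPM in shYap (log2 fold change 0.02 ± 0.19 SE, adjusted p = 0.984 in edgeR). Twist2 was at 45.1, 46.8, 42.4 and 32.3 CPM in shCon and at 50.3, 29.1, 25.1 and 48.2 CPM in shYap (-0.13 ± 0.24 SE, adjusted p = 0.905). The shYap libraries spread on both sides of shCon for both paralogs. In the shYap group the ratio of Twist1 to Twist2 ran from 0.847 in replicate 4 to 2.82 in replicate 3, against 1.29 to 1.44 in shCon.

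In shYap, replicate 3 was well above the other libraries for Zeb1, Zeb2 and Vim. Only its Vim value passed Dixon's critical value, as given under the flagged results. Zeb1 was at 65.9, 74.7, 135 and 82.7 CPM in shYap replicates 1 to 4 and at 77.9, 65.2, 74.7 and 73.2 CPM in shCon (0.30 ± 0.21 SE, adjusted p = 0.684 in edgeR). Zeb2 was at 75.02, 83.4, 184 and 58.6 CPM in shYap and at 112, 92.8, 116 and 86.7 CPM in shCon (-0.02 ± 0.33 SE, adjusted p = 0.99). Vim was at 3209.7, 2699, 5694 and 2755 CPM in shYap and at 2807, 2689, 2519 and 1941 CPM in shCon (0.53 ± 0.26 SE, adjusted p = 0.518). Replicate 3 held the highest value of each in the group. Without it the fold changes were 0.06 for Zeb1, -0.47 for Zeb2 and 0.24 for Vim (adjusted p = 0.848, 0.245 and 0.541). This library also had the smallest total of the table, 17207214 estimated counts, and the least hepatocyte RNA of its group (14057 CPM), while its macrophage markers summed to 3448 CPM, inside the group's range of 2608 to 3598 CPM. Their part in these levels was not tested.

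Cd44 was at 307, 281, 284 and 272 CPM in shCon and at 365, 265, 245 and 264 CPM in shYap, with replicate 1 above and the other 3 below every shCon library (-0.01 ± 0.15 SE, adjusted p = 0.991 in edgeR). Fn1 was at 1495, 1813, 1647 and 3072 CPM in shCon and at 2357, 2711, 2768 and 2654 CPM in shYap (0.39 ± 0.23 SE, adjusted p = 0.607). All 4 shYap values lay between shCon replicate 4 and the other 3. Cdh2 was at 13.4, 20.3, 20.96 and 55.2 CPM in shCon and at 34.1, 56.2, 11.5 and 37.4 CPM in shYap (0.34 ± 0.53 SE, adjusted p = 0.877). Replicate 4 was highest in shCon for both Fn1 and Cdh2 and also held the most hepatocyte RNA of that group, 39943 CPM against 11626 to 26926 CPM in the other 3. The shYap group differed: its replicate 4 held the most hepatocyte RNA (70843 CPM). Cdh2 was highest there in replicate 2 (43492 CPM of these markers). Fn1 was highest in replicate 3, which held the least (14057 CPM). What part hepatocytes had in these levels was not tested. With the hepatocyte covariate the fold change of Cdh2 was 0.01 (adjusted p = 0.99).

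**Figure D5:**
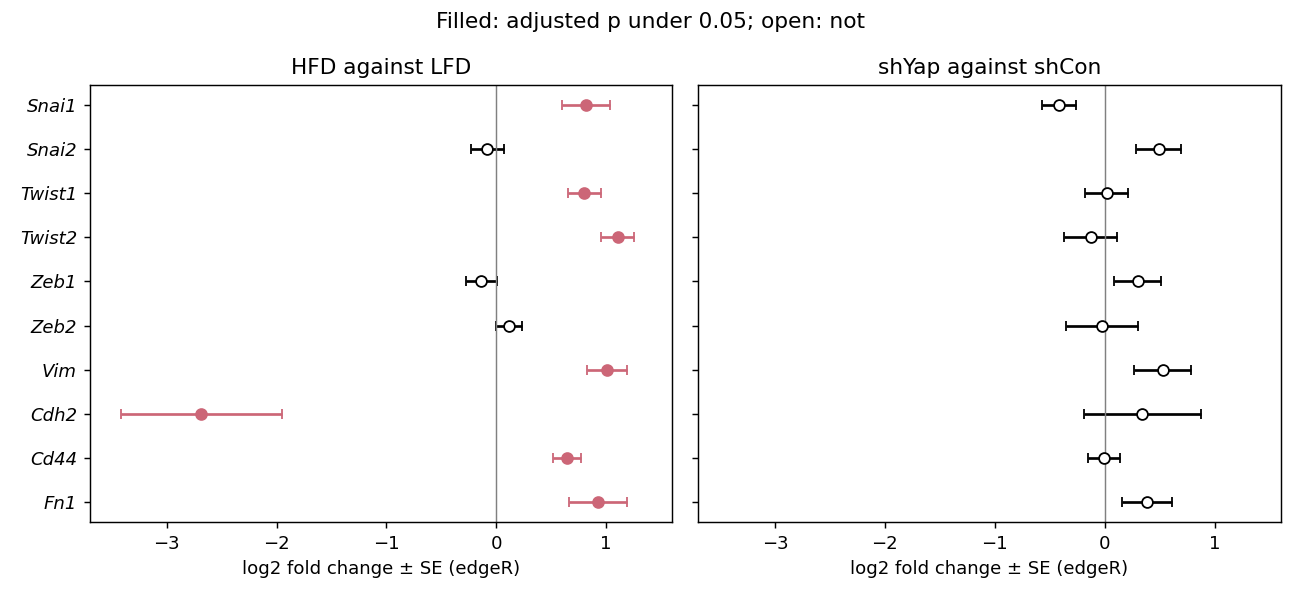
Log2 fold change with its standard error (horizontal axis) of the 10 genes for HFD against LFD (left) and shYap against shCon (right), filled where the adjusted p was under 0.05. On the left 6 filled genes lie above 0 and Cdh2, also filled, at -2.68; on the right all points are open, from -0.41 for Snai1 to 0.53 for Vim.

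No gene of the 6 other lists passed in this comparison in edgeR. Their medians were -0.05 for other transition factors, 0.12 for junction and keratin genes, 0.71 for the 5 tested epithelial identity factors, and 0.01, -0.01 and 0.0043 for partners, mesenchymal genes and signals. Notch1, a receptor whose signalling raises Snail factors, was at 59.6 ± 2.04 CPM in shCon and 35.9 ± 3.59 CPM in shYap (-0.73 ± 0.12 SE, adjusted p = 0.149), and Wnt5a at 85.3 ± 10.9 and 48.5 ± 16.3 CPM (-0.82 ± 0.22, adjusted p = 0.212). The surface genes Thy1 (-1.36 ± 0.26, adjusted p = 0.153) and Pdgfrb (-1.05 ± 0.25, 0.177) and the architectural factor Hmga2 (0.80 ± 0.20, 0.192) likewise did not pass. DESeq2 called these 5 genes and 4 more of 33 list genes examined, Klf5 (adjusted p = 0.0292), Itgb3 (0.0292), Jup (0.0407) and Lum (0.0347). Without shCon replicate 4, Thy1 (-1.56, adjusted p = 0.0309) and Prrx2 (-0.93, 0.0429) passed in edgeR. In edgeR, among the other genes of smallest p, Sox9 was at 0.59 ± 0.15 SE (adjusted p = 0.208), Klf5 at 1.32 ± 0.38 (0.262), Klf4 at 1.42 ± 0.50 (0.354), Itgb3 at 0.54 ± 0.14 (0.192), Jup at -0.42 ± 0.11 (0.21) and Lum at -0.91 ± 0.24 (0.208). Fibroblast markers summed to 5726 to 6346 CPM in shCon and 2983 to 5797 CPM in shYap. T cell markers summed to 44.2 to 106 CPM in shCon and 20.1 to 32.9 CPM in shYap. The part of either cell type in these levels, Thy1 among them, was not tested.

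The HFD and shCon tumours, both of high-fat-fed mice, stand in separately normalised tables, so their levels are set side by side with no test. Mean levels were 44.8 ± 7.47 and 49.9 ± 6.02 CPM for Snai1, 60.1 ± 7.82 and 57.1 ± 8.64 CPM for Twist1, 54.7 ± 6.87 and 41.6 ± 6.52 CPM for Twist2, and 2673 ± 107 and 2489 ± 384 CPM for Vim. Fn1 was at 3180.3 ± 232 CPM in HFD and 2007 ± 722 CPM in shCon, and Cdh2 at 8.09 ± 4.62 and 27.4 ± 18.8 CPM (SD, n = 5 and 4). Summed hepatocyte markers were higher in each shCon library, from 11626 CPM, than in any HFD library.

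Genes with the nearest pattern were searched by the root mean square difference of centred log2 CPM over the 18 libraries. Zeb2 was nearest to Sp3 (0.10) and Setd5 (0.12), and Zeb1 to Arnt and Plekha1 (0.12 each). Vim was nearest to Cav1 (0.15), the caveolin of membrane pits, and Pdp1 (0.16). Cd44 was nearest to Me2 and Noc3l (0.11 each), Twist1 to Zfp248 (0.13) and Usp11 (0.14), Twist2 to Emp3 and Rad9a (0.18 each), and Snai1 to Efna2 (0.16) and Fam217b (0.19). Cdh2 was nearest to Stbd1 (0.18) and Crot (0.21), Snai2 to Zcchc10 (0.16) and Nt5c3b (0.17), and Fn1 to Acad10 (0.22) and Cdkl2 (0.25). The 10 genes' own root mean square deviation from their mean ran from 0.27 for Zeb1 to 1.29 for Cdh2. The search covered 11094 genes, and the median difference to them ran from 0.37 for Zeb1 to 1.34 for Cdh2. Among the 10, the closest pair was Zeb1 and Zeb2 (0.25), and the next was Twist1 and Cd44 (0.27). Their own deviations were 0.27 for Zeb1, 0.34 for Zeb2, 0.39 for Twist1 and 0.30 for Cd44, so nearness here partly reflects small variation.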

How the data were processed

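The authors deposited gene-level estimated counts (59.7% and 61.8% of values whole) from Partek's E/M quantification, per the labels. STAR 2.7.3a, Partek and DESeq2 and the builds GRCm38 and mm10 are named per the submitters' processing notes, with neither role nor order. Annotation, strand and filters are not given in the sources used here. Symbol and start matched GENCODE M21 for 97.3% and 97.1% of genes, and ends and exon lengths are from GENCODE M21.

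Counts were rounded and each table was fitted alone in edgeR 4.0.16 (R 4.3.3; filterByExpr, TMM, quasi-likelihood test with robust dispersion and group as the sole term), with Benjamini-Hochberg adjustment over all genes tested and 0.05 as the threshold. Standard errors came from the fitted change and its F statistic, whose root is their ratio. The fit was tested on simulated counts. Alternatives used DESeq2 1.42.0, limma 3.58.1 (voom), other scaling and filters, a replicate block, marker covariates (mean log2 CPM, prior count 2), summed libraries and left-out libraries. The members and lists were chosen with earlier results of these data known. Named were the 10 genes, up to 4 genes per list by p in each comparison, and for each member the 2 nearest of those with a mean of at least 5 CPM in each table, without predicted genes, pseudogenes and other members. Precision is limited by 4 or 5 libraries per group. One gene that the naming rule chose is not reported here.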

Additional observations from a re-analysis of the deposited data

Results flagged for a closer look

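In 40 sets of values (10 genes in 4 groups) the highest or lowest library was compared with the rest of its group, and in 3 it stood apart by a gap larger than Dixon's critical value. Chance flags about 1 in 20 groups. Snai2 in shCon replicate 4 was at 12.1 CPM, with the next library at 16.6 CPM. Vim in shYap replicate 3 was at 5694 CPM, with the next at 3209.7 CPM. Cd44 in shYap replicate 1 was at 365 CPM, with the next at 265 CPM. All 3 lie in the table of shCon and shYap.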

How the results depend on the processing

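Of the 10 genes, 7 were called for HFD against LFD, and 5 to 7 under every alternative but one: with hepatocyte markers as a covariate 2 passed, Fn1 and Cdh2, both as higher. Leaving out each library in turn gave 7 each time, with the lowest and highest count both 7. For shYap against shCon the count was 0 in each alternative, from 0 to 0 with single libraries left out. With the hepatocyte covariate the sign turned for Cdh2 (1.78), Cldn3 (1.25), Ocln (1.17), Esrp2 (0.21), Foxq1 (2.73), Cdh1 (2.30), Egfr (1.96) and Krt18 (3.12), and for Zeb2 (0.12 to -0.33). Zeb2 and Krt18 had not been called. The cause was not tested, and this covariate cannot be told apart from diet. Replicate numbers are shared by the titles but were not taken as pairs: same-numbered libraries deviated together (correlation over 0.1 across genes) in 3 of 5 and 2 of 4 pairs, and 0 of 10 and 2 of 8 libraries correlated best with their own number. The numbers are those of the titles. The column headers number shYap replicates 3 and 4 as 4 and 5, so for these libraries titles and headers do not match shCon alike. With the replicate block 6 members were called for HFD against LFD, Cdh2 being lost (-2.28, adjusted p = 0.0757), and 0 for shYap against shCon, and over all genes 4929 and 0 were called. RLE and upper-quartile scaling moved the median of all genes by less than 0.1, and changed no call of the 10. Over all genes 1181 passed with the hepatocyte covariate and 4233 with the closest HFD pairs summed, against 6710. In the other comparison 94 passed without shCon replicate 4 and 408 in DESeq2, against 0. Leaving out LFD replicates 1 and 5 together was chosen after seeing the data. Zeb2os, antisense to Zeb2, reached up to 10.95% of its count.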

Other observations

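The keratins 8 and 18, which pair in the filaments of simple epithelia, had different levels within the HFD tumours. Krt8 was at 174 to 274 CPM in HFD and 19.8 to 267 CPM in LFD, while Krt18 was at 8.60 to 73.0 CPM in HFD and 28.5 to 236 CPM in LFD. Neither passed in edgeR (Krt8 0.90 ± 0.66 SE, adjusted p = 0.301; Krt18 -1.70 ± 0.83, adjusted p = 0.127). The ratio of Vim to Krt18 counts ran from 4.19 to 60.7 in LFD and from 37.0 to 297 in HFD, that of Vim to Krt8 from 4.43 to 84.1 and from 10.1 to 15.8. The HFD values of the latter lay inside the LFD range. Both keratins were picked with their values known.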
